A study of Mus musculus with 6 samples.

Results

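The genes of antigen processing and presentation, the machinery by which cells cut proteins into peptides and show them on MHC molecules at the cell surface, were followed in epididymal white adipose tissue (WAT) after timed sleep restriction (TSR). The members are all probe sets of the array annotated to exactly 1 gene symbol that starts with H2-, the mouse MHC, or that is one of 20 named genes of the pathway. This rule gave 68 of 22690 probe sets, for 39 of the 12394 genes that the array names by such probe sets. After probe sets of low signal were left out, 45 of the 68 probe sets were tested, and 28 of the 39 genes had at least 1 tested probe set. Of the named genes, Psme2 and Nlrc5 had no probe set annotated to them alone. Of the 45 tested probe sets, 29 were lower and 4 were higher after TSR, and 12 did not pass the test. Among all 14707 tested probe sets 46.6% passed, 21.0% lower and 25.6% higher. By the brightest tested probe set of each gene, 21 of the 28 genes fell, among them the peptide transporter gene Tap1, the class II gene H2-Ab1 and the immunoproteasome gene Psmb9. The genes H2-Q10, Pdia3 and Tapbpl rose and 4 genes did not pass. In bulk tissue fewer cells of a type and less RNA per cell cannot be told apart. By genes, 47.0% of all 8619 tested passed in either direction, 23.0% lower and 24.0% higher.

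MHC class I molecules consist of a heavy chain and the light chain beta-2 microglobulin, and they present peptides from the cytosol on nearly all cells. The peptides are cut by the proteasome, in its immune form with the exchanged subunits Psmb8, Psmb9 and Psmb10, carried into the endoplasmic reticulum by the transporter of Tap1 and Tap2, trimmed there by Erap1 and loaded with the help of tapasin, calreticulin, calnexin and Pdia3. MHC class II molecules are found mainly on macrophages, dendritic cells and B cells, although adipocytes are also known to express them. Their alpha and beta chains are kept free of peptide by the invariant chain Cd74 until H2-DM exchanges its remnant for peptides from endosomes. Interferon gamma induces genes of both arms.

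Each sample was epididymal fat of wild-type C57BL/6 mice killed at ZT18, in the middle of the dark phase, and the methods describe male mice aged 9 to 11 weeks. The 3 TSR samples came from the end of 5 days on which sleep was prevented for 6 h per day from ZT0 by gentle handling, and the 3 control samples from mice of the control condition. RNA was hybridised to mouse expression arrays, 1 array per sample, and the values are MAS5 signal intensities, a scale of brightness in which 1 probe set cannot be set against another. Whether an array held 1 animal or a pool is not stated, and p-values therefore cover the spread among these 6 samples alone. The methods describe tissue kept in RNAlater and a kit for lipid tissue, whereas the labels name liquid nitrogen and Trizol. The trimmed mean signal was 499.9 on all 6 arrays. Replicates of a group had a median log2 SD of 0.10 over the tested probe sets, and precision is limited by there being 3 arrays in each group. The 7 measured adipocyte markers, among them Adipoq and Fabp4, had a summed signal of 69716 to 83395 in control and 59699 to 69662 after TSR. Such a sum is led by its brightest probe sets, and of these 7 markers 4 fell and 3 rose. The summed signal of the hepatocyte markers was 332 to 459 in control and 11354 to 11713 after TSR. All 12 measured hepatocyte markers had a higher mean after TSR. The difference between 5′ and 3′ probe sets for beta-actin, a check of RNA quality, was -1.22 ± 0.012 (log2, SD) in control and -0.67 ± 0.0013 after TSR. For Gapdh it was -0.52 ± 0.066 in control and 0.13 ± 0.054 after TSR. Both shifts run with the groups and far exceed the SD. Their part in the changes reported here cannot be told apart from that of TSR.

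The promoters of 5 members are shown because their genes span the range of the response and both classes: Tap1 and its neighbour Psmb9, which start from 1 shared region and both fell, the class I pair B2m and H2-K1, which fell, H2-Q10, which rose, and the class II chain gene H2-Aa. The windows run from 250 bases before to 50 bases after the annotated start, from RefSeq on GRCm38.p6, 5′ to 3′ on the strand of the gene. Capitals mark, on either strand, the letters CCAAT of the Y box and TGACG of the X2 box core, both parts of the conserved promoter module of MHC genes, and the core of the interferon-stimulated response element (GAAA, any 2 bases, GAAA). They lie at chr17:34187306-34187605 on the + strand for Tap1, chr2:122147437-122147736 on the + strand for B2m, chr17:34000298-34000597 on the - strand for H2-K1, chr17:35469839-35470138 on the + strand for H2-Q10 and chr17:34287774-34288073 on the - strand for H2-Aa.
Tap1: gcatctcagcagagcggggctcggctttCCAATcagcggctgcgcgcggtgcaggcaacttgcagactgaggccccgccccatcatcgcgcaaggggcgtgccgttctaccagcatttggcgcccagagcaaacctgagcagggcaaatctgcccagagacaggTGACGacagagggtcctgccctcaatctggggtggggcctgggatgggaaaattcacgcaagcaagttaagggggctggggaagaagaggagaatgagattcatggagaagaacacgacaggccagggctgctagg
B2m: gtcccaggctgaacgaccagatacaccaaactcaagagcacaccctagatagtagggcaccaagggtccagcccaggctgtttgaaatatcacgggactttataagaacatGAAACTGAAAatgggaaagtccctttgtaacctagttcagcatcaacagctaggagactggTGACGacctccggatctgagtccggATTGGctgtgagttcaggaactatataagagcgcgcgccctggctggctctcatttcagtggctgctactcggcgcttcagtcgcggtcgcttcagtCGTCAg
H2-K1: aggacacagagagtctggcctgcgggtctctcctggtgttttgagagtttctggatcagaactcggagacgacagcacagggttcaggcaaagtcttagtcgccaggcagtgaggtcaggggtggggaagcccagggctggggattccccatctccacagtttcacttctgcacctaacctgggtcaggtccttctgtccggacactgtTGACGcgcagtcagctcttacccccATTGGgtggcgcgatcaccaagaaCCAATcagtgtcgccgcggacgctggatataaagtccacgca
H2-Q10: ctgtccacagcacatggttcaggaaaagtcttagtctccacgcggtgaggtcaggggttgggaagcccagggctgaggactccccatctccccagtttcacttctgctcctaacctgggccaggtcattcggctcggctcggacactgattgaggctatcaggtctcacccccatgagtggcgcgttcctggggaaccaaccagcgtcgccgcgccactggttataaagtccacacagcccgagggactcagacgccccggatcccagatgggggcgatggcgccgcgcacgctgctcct
H2-Aa: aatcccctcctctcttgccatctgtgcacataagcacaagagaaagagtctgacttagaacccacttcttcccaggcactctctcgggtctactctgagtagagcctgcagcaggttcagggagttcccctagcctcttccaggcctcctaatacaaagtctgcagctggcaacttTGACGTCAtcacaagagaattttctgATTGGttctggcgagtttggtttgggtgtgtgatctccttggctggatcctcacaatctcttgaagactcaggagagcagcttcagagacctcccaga

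The Tap1 and Psmb9 windows lie on opposite strands and share 275 bases, with the 2 starts 226 bases apart. The Tap1 window has 1 Y box and 1 X2 match, and the B2m window holds all 3 marked motifs. In H2-Aa the capitals TGACGTCA are a pair of overlapping X2 matches on opposite strands. The windows of H2-K1 and H2-Q10 were 86.1% identical over the 231 bases paired in a global alignment, yet the H2-Q10 window holds none of the marked letters, whereas that of H2-K1 has 1 X2 match and 2 Y box matches. RefSeq windows were matched for 22 of the 28 tested genes and not used for Cd74, Cd1d1, Ciita, H2-Ab1, Tap2 and Tapbpl. The Y box letters were found for 16 of the 22 genes, against 41.1% of all 27025 genes with a window, and the X2 letters for 10 of 22, against 23.0%. The interferon core was found for 3 (B2m, Erap1 and Psme1), against 3.99% of all genes, and the letters TTCNNNGAA of the gamma-activated site for 3 (H2-DMb2, H2-M3 and Psmb8), against 9.55%. A match is a description of these letters only, and a site that departs from them is not counted. Of the 18 genes with a window that fell, 13 held the Y box letters and 8 the X2 letters. The same letters were found in genes that did not fall. Pdia3, which rose, and H2-D1, which did not pass, each held 2 Y box matches and 1 X2 match, and H2-DMb2, which did not pass, held 1 Y box match. Psmb10 fell and held none of these motifs.

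Among MHC class I genes, by the brightest probe set of each, the light chain gene and the classical heavy chain gene H2-K1 were lower after TSR. H2-D1 did not pass the test and H2-Q10 was higher. B2m, whose product is the light chain of every class I molecule, had signals of 14069, 13975 and 13757 in control and 10563, 10116 and 10503 after TSR. All 3 TSR arrays lay below all 3 control arrays, the ratio of the means was 1.34, and the log2 fold change was -0.42 ± 0.05 (SE, n = 3 per group; limma, adjusted p = 1.1e-04). Signals of H2-K1, a classical heavy chain, were 10229.8, 10683 and 9405 in control and 7325, 7443 and 6897 after TSR. Again no TSR array reached a control array, and H2-K1 fell by 0.48 ± 0.06 on the log2 scale (SE; adjusted p = 2.3e-04). Not all of its probe sets passed, as given below. H2-D1, the other classical heavy chain measured here, gave 8424, 9018 and 7715 in control and 7655, 8009 and 7233 after TSR. Its groups overlapped, and its log2 fold change of -0.13 had a 95% confidence interval from -0.28 to 0.02 (adjusted p = 0.13; 0.044 without control replicate 3).

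The call of B2m depended on the scaling between arrays. Of the 795 tested probe sets with a mean log2 signal of at least 12, 62.5% were called lower and the median log2 fold change was -0.23. By their brightest probe sets B2m, H2-K1, H2-D1, Cd1d1, the class II gene H2-Aa and the chaperone gene Calr all lie in this bright range. After quantile normalization, which gives every array one distribution of signals, that median was -0.04, B2m had a log2 fold change of -0.08 (adjusted p = 0.33) and H2-D1 one of 0.10 (adjusted p = 0.096). H2-K1 was still lower under it, at -0.25 (adjusted p = 4.5e-04), as were H2-Aa at -0.37 and Calr at -0.41. Median centring moved values the other way, and limma then called H2-D1 lower at -0.24 (adjusted p = 0.029) and Cd1d1 lower at -0.24 (adjusted p = 0.016).

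Nonclassical class I genes moved in both directions. H2-M3, which presents formylated peptides, read 625, 640 and 601 in control and 353, 395 and 415 after TSR. The groups were far apart, and the log2 fold change was -0.69 (adjusted p = 1.0e-04), the largest fall among the class I genes tested. The signal of H2-Q10, known as a class I molecule that the liver secretes, was 413, 416 and 424 in control and 487, 454 and 546 after TSR. Every TSR array lay above every control array, at a log2 fold change of 0.24 (adjusted p = 0.026). The call was lost in 8 of 15 alternative settings, with adjusted p of 0.071 and 0.054 without control replicate 1 or 2 and 0.059 and 0.080 without TSR replicate 1 or 3. The hepatocyte markers rose with it, all 7 tested by limma and at a median of 4.83 on the log2 scale. Of these, Fabp1, Apoa1, Hpx and Cyp3a11 were dim in control, with means of 22.6 to 30.7, and passed the low-signal filter only through their TSR arrays. Their calls were thus largely set by the filter, and the median rests in part on control signals near the floor. Serpina1c went from 69.0 ± 8.27 to 3049 ± 185 (SD, n = 3). The part of these markers in the rise of H2-Q10 was not tested. Cd1d1, a class I-like molecule that presents lipids to natural killer T cells, had signals of 7121, 7036 and 7249 in control and 6667, 6809 and 6066 after TSR. The groups did not overlap, but the log2 fold change of -0.13 (95% interval -0.25 to -0.01) did not pass after adjustment (adjusted p = 0.068; 0.048 without TSR replicate 2), and it was 0.05 after quantile normalization.

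Some class I heavy chain genes are similar to each other in sequence, and their probe sets may share signal. The array's maker marks probe sets that can match further transcripts by the endings x_at and s_at, which 16 of the 45 tested members carry. H2-K1 was read by 4 tested probe sets, all of this kind. From the brightest to the dimmest their log2 fold changes were -0.48, -0.10, 0.05 and -0.60, of which the first and the last passed. The dimmest of them read 298, 276 and 346 in control and 209, 173 and 224 after TSR. The 5 tested probe sets of H2-D1 gave -0.13, -0.20, -0.14, -0.14 and 0.41, and none passed. The last of these rested on 1 control array, at 28.5 against 180 and 127 in the other 2 controls. The class I genes H2-Bl, H2-M10.1, H2-M9, H2-Q2, H2-Q5, H2-T18, H2-T24 and H2-T3 had no tested probe set, and no signal of theirs was above 62.9 on any array. H2-D4, counted here by its H2 name only, also had none, with no signal above 12.4.

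**Figure D1:**
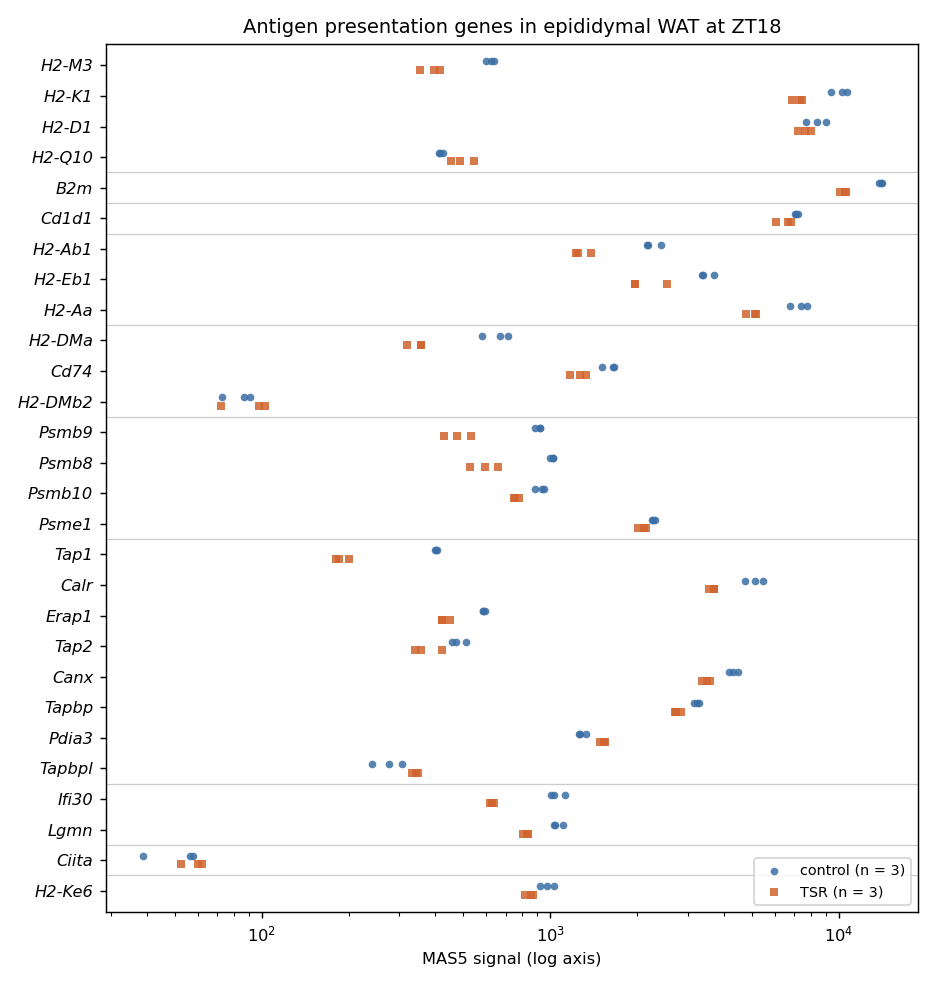
MAS5 signal (log axis) of the brightest tested probe set of each of the 28 genes, with circles for the 3 controls, squares for the 3 TSR arrays and lines between groups of like role. The TSR points of B2m lie between 10116 and 10563 and its control points between 13757 and 14069, and those of H2-D1, H2-DMb2 and Ciita overlap between the groups.

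Genes of MHC class II fell more evenly. All 3 chain genes with a tested probe set were lower after TSR, in each of their 6 tested probe sets. H2-Ab1, the beta chain of the I-A molecule, had signals of 2171, 2425 and 2173 in control and 1251, 1379 and 1224 after TSR. The highest TSR array was well below the lowest control array, with a ratio of the means of 1.76 and a log2 fold change of -0.81 ± 0.06 (SE; adjusted p = 1.9e-05). H2-Aa, its alpha chain partner, gave 7761, 7425 and 6794 in control against 5131, 4786 and 5179 after TSR. It fell by 0.54 ± 0.06 (SE; adjusted p = 1.3e-04), again with no overlap. For H2-Eb1, the beta chain of the I-E molecule, the control signals were 3346, 3707 and 3375 and the TSR signals 1970.2, 1967 and 2532. TSR replicate 3 was nearer to control than the other 2, and the log2 fold change was -0.70 ± 0.10 (SE; adjusted p = 4.4e-04). The alpha chain of I-E, H2-Ea, which mice of this strain are known not to express, had 3 probe sets, and no signal of theirs exceeded 22.1 on any array.

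The genes that prepare class II molecules for peptide were less uniform. Cd74, the invariant chain, read 1669, 1652 and 1509 in control and 1268, 1331 and 1171 after TSR. The groups were separate, and the log2 fold change was -0.36 ± 0.06 (SE; adjusted p = 0.0016). H2-DMa, the alpha chain of the peptide exchanger H2-DM, had 714, 670.2 and 581 in control and 355, 357 and 318 after TSR. With a ratio of 1.91 and a log2 fold change of -0.93 ± 0.09 (SE; adjusted p = 5.3e-05), H2-DMa had the largest fall of the class II genes tested. The probe set annotated to H2-DMb2 alone was dim, with 73.0, 90.8 and 87.0 in control and 98.1, 72.3 and 102 after TSR. Its groups overlapped, and the log2 fold change of 0.11 did not pass (adjusted p = 0.63; 95% interval -0.28 to 0.50). H2-Oa, a chain of the inhibitor of H2-DM, had no tested probe set and no signal above 40.6.

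Set side by side, class I (heavy chains and B2m) had 3 of 5 tested genes lower and 1 higher, at a median log2 fold change of -0.42, and class II (chains and loading genes) had 5 of 6 lower and 0 higher, with a median of -0.62. Over all tested genes the median was 0.01. Per array, the class I median relative to the control mean was -0.40, -0.44 and -0.41 in the TSR samples and between -0.05 and 0.04 in control. The class II median was -0.66, -0.66 and -0.48 in the TSR samples and between -0.07 and 0.07 in control. In each TSR array class II thus lay further below its control mean than class I, and the medians differed by -0.20, but with so few genes chosen by name this difference is a description with no test. Probe sets shared by several genes are left out of these medians. The tested ones of class I ranged from -1.28 (H2-Q6 and H2-Q8) to -0.27 (H2-K1 and H2-D1), and those of class II (H2-DMb1 and H2-DMb2) gave -0.48 and -0.23. The order of the classes thus holds for the members only. After quantile normalization the class I median was -0.08 and the class II median -0.52. Of the 28 genes 19 were then lower and 1 higher, against 25.3% and 19.7% of all tested genes. Median centring gave 23 lower and 0 higher, against 32.7% and 14.9%, and the test that the methods name, on linear signals, 19 lower and 1 higher, against 17.3% and 18.6%.

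Differences between pairs of genes within an array, which no scaling factor per array can alter, were compared for 5 pairs by a two-sided exact permutation test, in which 3 against 3 arrays cannot give a p below 0.1. H2-Ab1 minus H2-K1, a class II chain against a class I chain, was -2.24, -2.14 and -2.11 in control and -2.55, -2.43 and -2.49 after TSR. The TSR arrays were all lower, by 0.33 (exact p = 0.1, 0.125 after adjustment over the 5 pairs), and the difference was -0.57 after quantile normalization. Each gene stands here by its brightest probe set, with log2 fold changes of -0.81 for H2-Ab1 and -0.48 for H2-K1. The dimmer probe sets gave -0.52 and -0.42 for H2-Ab1 and -0.10, 0.05 and -0.60 for H2-K1. The difference thus depends on the probe sets chosen. For Cd74 minus B2m, the control values were -3.08, -3.08 and -3.19 and the TSR values -3.06, -2.93 and -3.17. These overlapped, with a difference of 0.07 (exact p = 0.4), which was -0.30 after quantile normalization (exact p = 0.2). By the brightest probe sets and the signals as deposited, the class II gene was further below its class I partner after TSR in 1 of the 2 pairs. After quantile normalization the mean difference was negative in both.

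**Figure D2:**
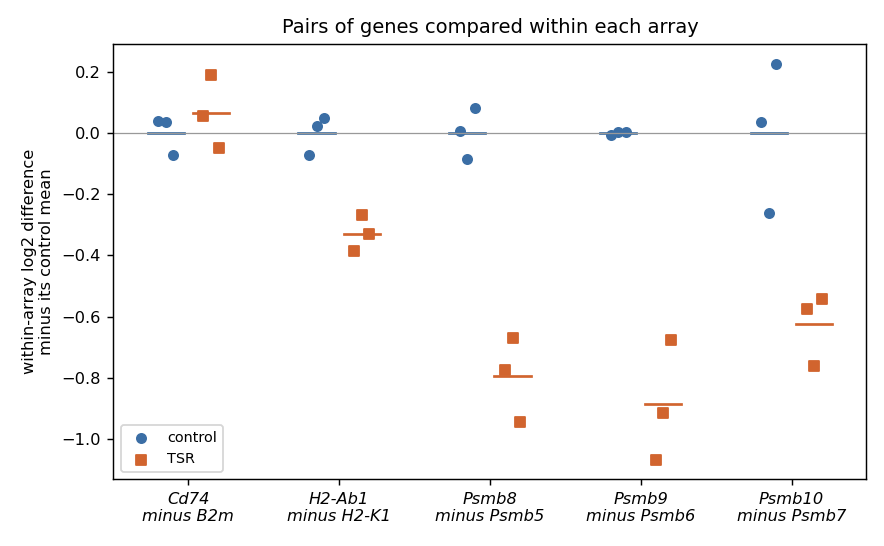
Log2 difference between the 2 genes of each pair within each array, after subtracting its control mean, with circles for the 3 controls, squares for the 3 TSR arrays and lines at the group means. The TSR means lie at -0.33 for H2-Ab1 minus H2-K1 and at -0.79, -0.89 and -0.63 for the immunoproteasome subunits against their constitutive counterparts, while Cd74 minus B2m overlaps between the groups at 0.07.

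All 4 genes of the immunoproteasome and its activator fell. Psmb9, one of the exchanged catalytic subunits, had signals of 921, 922 and 883 in control and 428, 474 and 530.1 after TSR. The TSR signals were spread but all far below control, with a ratio of 1.90 and a log2 fold change of -0.93 ± 0.08 (SE; adjusted p = 2.6e-05). Psmb8 read 1025, 997 and 1025 in control and 593, 661 and 529 after TSR, and Psmb10 read 882, 933 and 954 in control and 746, 782 and 752 after TSR. Neither overlapped, and they fell by 0.78 (adjusted p = 7.1e-05) and 0.28 (adjusted p = 0.0021) on the log2 scale. For Psme1, the alpha subunit of the 11S activator that opens the proteasome, the change was slight, from 2250.3, 2279 and 2299.8 in control to 2114, 2150.1 and 2007 after TSR. Its log2 fold change of -0.12 passed (adjusted p = 0.043), but the call was lost in 8 of 15 alternative settings, among them leaving out control replicate 1, 2 or 3 (adjusted p = 0.085, 0.077 and 0.10) or TSR replicate 1 or 3 (0.091 and 0.12).

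The constitutive subunits that these immune subunits replace did not fall. Psmb5 and Psmb6 had log2 fold changes of 0.02 (adjusted p = 0.81) and -0.05 (adjusted p = 0.40), and Psmb7 was higher (0.35, adjusted p = 0.042). The groups of Psmb7 overlapped, with 739, 963 and 701 in control and 956, 1138 and 941 after TSR. Within arrays, Psmb8 minus Psmb5 was -0.97, -1.06 and -0.89 in control and -1.75, -1.65 and -1.92 after TSR. Psmb9 minus Psmb6 went from -1.44, -1.43 and -1.43 to -2.50, -2.35 and -2.10. Psmb10 minus Psmb7 was 0.25, -0.04 and 0.44 in control and -0.36, -0.54 and -0.32 after TSR, which combines the fall of Psmb10 (-0.28) with the rise of Psmb7 (0.35). In all 3 pairs every TSR array lay below every control array, with differences of -0.79, -0.89 and -0.63 (exact p = 0.1 each, 0.125 after adjustment). They were -0.86, -0.98 and -0.63 after quantile normalization.

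Among the genes of peptide transport, trimming and class I loading, 6 of 8 fell and 2 rose. Tap1, a subunit of the peptide transporter, had signals of 397, 407 and 401 in control and 181, 199.9 and 185 after TSR. Within each group the arrays were close together, and the gap between the groups gave a ratio of 2.13 and a log2 fold change of -1.09 ± 0.07 (SE; adjusted p = 7.7e-06). Tap1 was the only gene of the 28 to fall at least 2-fold, as did 1.40% of all tested genes and 1.21% of all tested probe sets. Its 3 other probe sets had no signal above 17.9 and were not tested. Tap2, the other subunit, read 457, 509 and 471 in control and 340.0, 420.0 and 358 after TSR. It fell by 0.37 (adjusted p = 0.0087), with no overlap, and lost its call in the test that the methods name, on linear and on log2 signals (adjusted p up to 0.061).

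Erap1, which trims peptides in the endoplasmic reticulum, gave 583, 587 and 593 in control and 422, 448 and 422 after TSR. This was a fall of 0.45 with narrow groups (adjusted p = 2.4e-04). Calr, the chaperone calreticulin of newly made class I molecules, had 5140, 5473 and 4739 in control and 3690.3, 3701 and 3554 after TSR. Its log2 fold change was -0.49 (adjusted p = 1.9e-04), and its 2 dimmer probe sets gave -0.47 and -0.48. Canx, the membrane-bound chaperone calnexin, was lower by its brightest probe set, with 4283, 4157 and 4485 in control and 3584, 3361 and 3495 after TSR. Of its 3 probe sets that one and the dimmest fell, by 0.31 and 0.35, and the third had a log2 fold change of 0.15 (adjusted p = 0.16).

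Tapbp, the tapasin that bridges the transporter and class I, was called in opposite directions by its 2 probe sets. The brighter read 3217, 3281 and 3137 in control and 2697, 2828 and 2725 after TSR, a log2 fold change of -0.22 (adjusted p = 0.0025). The dimmer read 130.1, 128 and 138 in control and 193, 202 and 185 after TSR, a log2 fold change of 0.55 (adjusted p = 0.0015). No overlap was seen in either, so the direction for Tapbp depends on the probe set. Pdia3, a disulfide isomerase that works with tapasin, rose from 1254, 1332 and 1269 to 1548, 1487 and 1529.5. Its groups were separate, at a log2 fold change of 0.24 (adjusted p = 0.0022), and only median centring of the arrays ended the call (adjusted p = 0.060). Tapbpl, a tapasin-related editor of class I peptides, read 275, 241 and 307 in control and 349, 342 and 333 after TSR. It was higher by 0.32 (adjusted p = 0.021), a call lost in 8 of 15 alternative settings, with adjusted p of 0.0504 and 0.053 without control replicate 1 or 2 and 0.068 and 0.055 without TSR replicate 1 or 2.

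**Figure D3:**
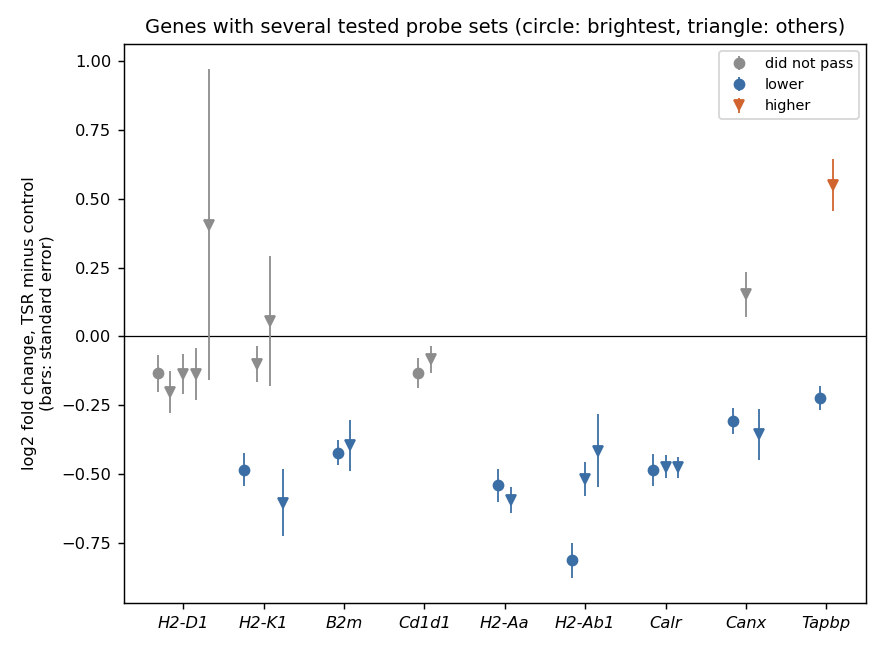
Log2 fold change (TSR minus control, bars: standard error) of every tested probe set of the 9 genes with several, the brightest as a circle and the others as triangles, coloured by the call. The probe sets of B2m, H2-Aa, H2-Ab1 and Calr are all lower, those of H2-K1 range from -0.60 to 0.05, and Tapbp is called in both directions (-0.22 and 0.55).

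Both endosomal enzymes fell. Ifi30, a thiol reductase that unfolds antigens for class II, had signals of 1126, 1027 and 1007 in control and 620.2, 629 and 639 after TSR. With a ratio of 1.67 and a log2 fold change of -0.74 ± 0.06 (SE; adjusted p = 1.5e-05), its groups were widely separate. Lgmn, an endopeptidase of lysosomes, read 1033, 1105 and 1037 in control and 839, 829 and 805 after TSR. It fell by 0.36 (adjusted p = 4.3e-04), again with no overlap. Ciita, the transactivator that switches on class II genes, was near the filter, with 57.6, 38.6 and 56.2 in control and 52.3, 59.9 and 62.0 after TSR. Its groups overlapped, and its log2 fold change of 0.21 did not pass (adjusted p = 0.43). The 95% interval, from -0.25 to 0.68, spans changes of both signs. The other probe set of Ciita lay below the filter and was not tested, with 27.8, 35.5 and 44.6 in control and 20.8, 28.4 and 44.8 after TSR. H2-Ke6, a gene inside the MHC region whose product is a steroid dehydrogenase and no MHC molecule, was also lower (-0.20, adjusted p = 0.015; 0.0503 without control replicate 3 and 0.063 without TSR replicate 1).

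**Figure D4:**
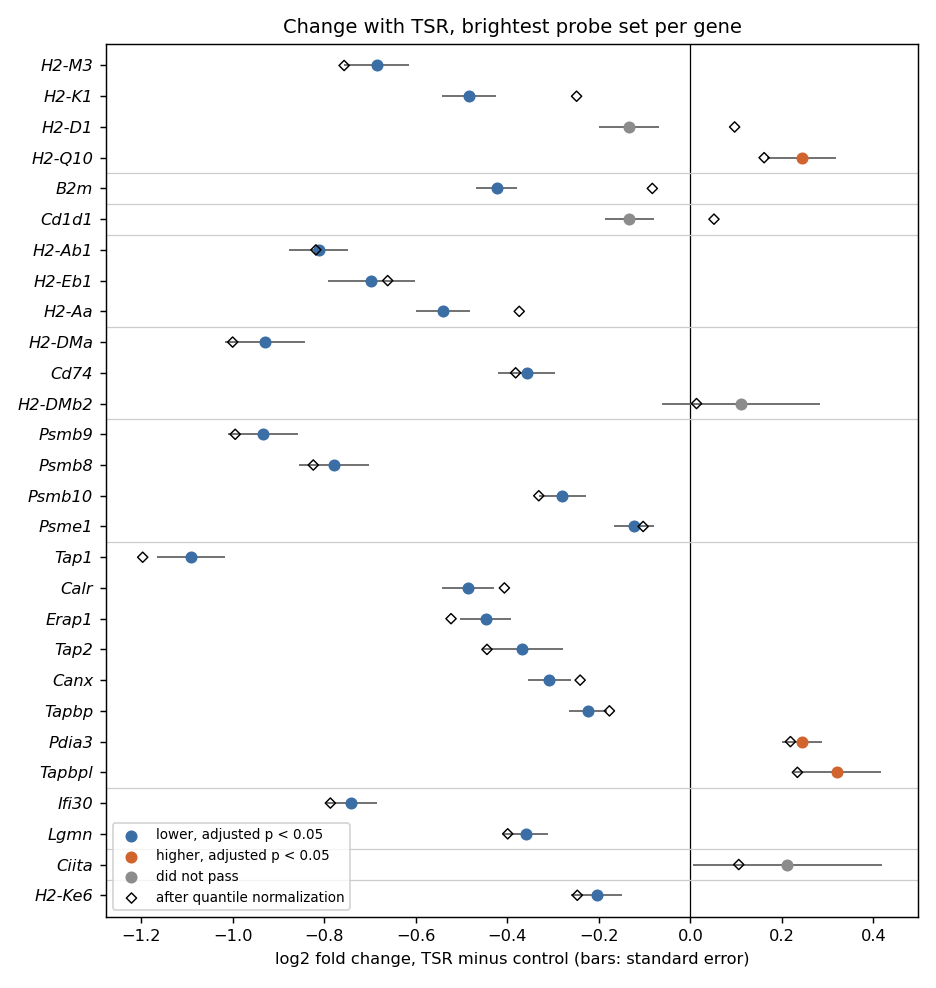
Log2 fold change (TSR minus control) of the brightest tested probe set of each of the 28 genes, bars showing the standard error, coloured by the call of limma, with open diamonds for the same probe set after quantile normalization. Tap1 lies lowest at -1.09, the diamonds of B2m (-0.08), H2-D1 (0.10) and Cd1d1 (0.05) lie to the right of their points, and most other diamonds lie close to theirs.

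Many of these genes sit together in the MHC on chromosome 17. Of the 15 tested genes on that chromosome 12 fell and 1 rose, at a median log2 fold change of -0.54. Of the 13 on other chromosomes 9 fell and 2 rose, with a median of -0.31. Among all tested genes 23.0% were called lower and 24.0% higher. In 27.6% of all tested genes every TSR array lay below every control array. By probe sets, 30 of the 45 tested members showed this, against 25.2% of all tested probe sets, and in 4 every TSR array lay above control, against 31.4%. The opposite separation held for 29.3% of all tested genes.

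Genes around the pathway were counted in lists, beside 23.0% lower and 24.0% higher among all tested genes. Of 19 tested genes induced by interferons 15 fell and 0 rose, with a median log2 fold change of -0.73. The largest falls were in the immunity-related GTPase gene Iigp1, from 2268 ± 20.6 to 779 ± 30.8 (SD, n = 3), the guanylate-binding protein gene Gbp3 (-1.23) and the chemokine gene Cxcl9 (-1.19). Of 14 tested genes of interferon gamma signalling and MHC transcription, 5 fell and 3 rose, with a median of -0.06. Irf1, a transcription factor that binds class I and immunoproteasome promoters, read 955, 1014 and 996 in control and 659, 671 and 626 after TSR, and fell by 0.60 (adjusted p = 3.1e-05). Irf2, which binds the same sites, fell by 0.72, and the receptor chain gene Ifngr1 by 0.49. The other receptor chain gene, Ifngr2, rose from 62.8 ± 6.26 to 157 ± 4.78 (SD, n = 3), a log2 fold change of 1.32. The probe set of Ifng itself lay below the 25th percentile on all arrays.

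Of 9 endosomal proteases and partners 5 fell and 1 rose, with falls in Ctsh (-0.81), the protease inhibitor gene Cst3 (-0.54) and Ctss (-0.49), which cleaves the invariant chain. Of 8 genes of glycoprotein folding in the endoplasmic reticulum 4 fell, such as Pdia4 (-0.67), Pdia6 (-0.26) and Hspa5 (-0.24), and 2 rose, among them Ganab (0.31). None of 6 cytosolic peptidases fell and 2 rose, the bleomycin hydrolase gene Blmh (0.26) and the aminopeptidase gene Npepps (0.25), while the brightest, Lap3, had a log2 fold change of 0.00 (adjusted p = 0.97). Among 5 other MHC-like molecules Azgp1 (2.45) and Mr1 (0.78), which presents vitamin metabolites, rose, the protein C receptor gene Procr (-0.62) fell, and Fcgrt, the neonatal Fc receptor and the brightest, did not pass (0.07, adjusted p = 0.24). The costimulatory genes Cd86 (-0.56) and Cd40 (-0.52) fell and none of the 5 tested rose. Cd274, which encodes PD-L1 and was the brightest of them, had a log2 fold change of 0.17 (adjusted p = 0.099). Azgp1, known from liver and fat, read 30.7 ± 11.2 in control and 161 ± 5.99 after TSR (SD, n = 3).

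Among markers of the cells that carry class II, most tested ones of macrophages and dendritic cells fell with these genes. Only 2 B cell markers were tested, both of them dim and near the filter, and neither fell. Of 13 tested macrophage markers 12 fell and Itgam did not pass, their median log2 fold change was -0.55, and the summed signal of the list was 28625 to 29545 in control and 19191 to 19595 after TSR. The Fc receptor gene Fcgr1 fell by 0.98, the mannose receptor gene Mrc1 by 0.95, the complement gene C1qa by 0.69 and the lysozyme gene Lyz2, the brightest, by 0.52. All 5 tested dendritic cell markers fell, among them the transcription factor genes Batf3 (-1.04), Irf4 (-0.58) and Zbtb46 (-0.51), and the sum over the 8 measured ones was 839 to 936 in control and 523 to 651 after TSR, with Ccr7 below the 25th percentile on all arrays. Of the 2 tested B cell markers Ms4a1 was higher (0.67), with the sum of 7 measured at 182 to 185 in control and 222 to 235 after TSR and Cr2 below the 25th percentile. Mean signals were 43.4 in control and 68.9 after TSR for Ms4a1, and 43.8 and 51.6 for Cd79b, which did not pass. Of the 7 measured, 5 had a higher mean log2 signal after TSR, whereas Cd79a and Pax5, both untested, had a lower one. Such dim signals limit a contrast with macrophages. Of the 9 measured T and NK cell markers, whose sum was 452 to 514 in control and 259.9 to 315 after TSR, both tested ones, Gzma (-0.92) and Nkg7 (-0.51), fell, and Cd4 and Cd8b1 lay below the 25th percentile. Endothelial markers counted 3 higher and 1 lower of 6, mesothelial markers 1 higher and 2 lower of 5, and adipocyte markers 3 higher and 4 lower of 7. The part of these shifts in the falls of class I and class II genes was not tested.

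**Figure D5:**
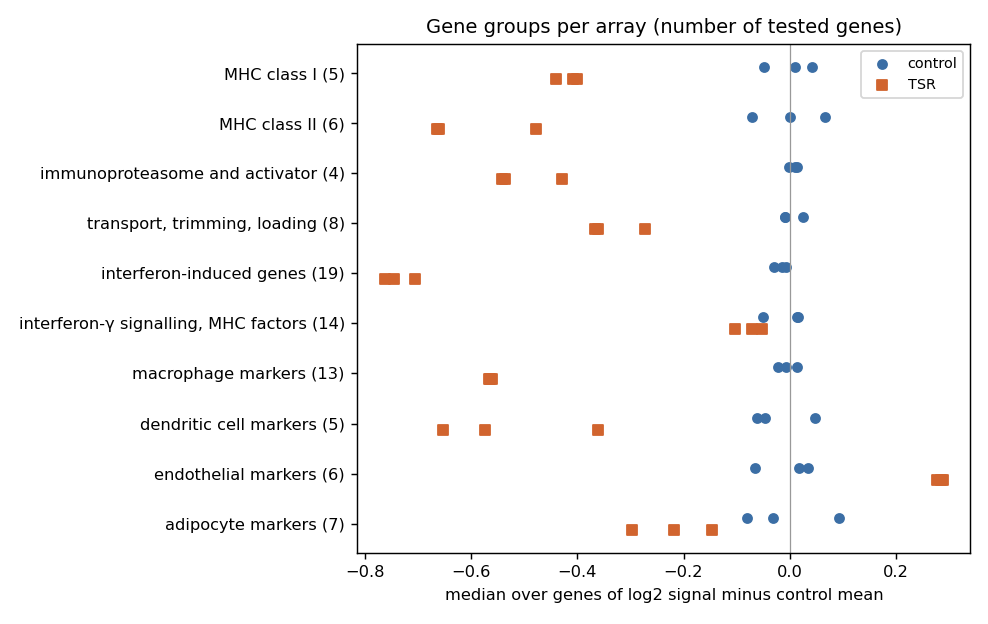
Median over the tested genes of each group, on the log2 scale and relative to the mean of the controls, for each control (circle) and TSR (square) array, with the number of genes in brackets. In the TSR samples the class II medians lie between -0.66 and -0.48, the class I medians between -0.44 and -0.40 and those of the interferon-induced genes between -0.76 and -0.71, while the endothelial medians lie above control.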

How the data were processed

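Per the labels and the methods, RNA from epididymal WAT (3 control samples, 3 TSR samples) was hybridised to Affymetrix mouse arrays. The authors made MAS5 signal intensities in Affymetrix software (version not given in the sources used here), which are deposited as linear values with every array scaled to one target. The platform table gives 1 symbol for 20393 of 22690 probe sets, several for 691 and none for 1606. All 39 member symbols matched a gene of the RefSeq table.

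Signals were taken to log2, and probe sets were left out where they were controls (64) or ranked in the bottom 35% of the rest (mean log2 signal below 5.45). Members just inside and outside this limit had means of 5.75 and 5.18. The 14707 remaining probe sets were fitted with limma version 3.58.1 in R 4.3.3 (two-sided, with an intensity trend and prior degrees of freedom of 4.86), with Benjamini-Hochberg adjustment over all of them and a threshold of 0.05. The brightest tested probe set stood for each of 8619 genes. Ratios are of mean signals. Pairs of genes were compared with exact permutation tests.

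The members and lists were chosen with earlier results of these data known. Every member gene with a tested probe set could be named, the genes of the rule with their values on every array, and from each other list the 3 largest called changes and the brightest gene. Array values of H2-M3, H2-Q10, H2-DMb2, Tapbpl and Irf1 were added after their values were seen. Alternatives were the t-test of the methods on linear and on log2 signals, a fit without the trend, a stricter filter (bottom 50%) or none, a floor at the 25th percentile of an array, median centring, quantile normalization, a block for the replicate number, and leaving out single arrays. For class medians, averaging the probe sets of a gene and leaving out x_at and s_at probe sets were also tried. The fit was tested on simulated data.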

Additional observations from a re-analysis of the deposited data

How the results depend on the processing

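Of 28 genes, 22 to 28 kept their direction and their side of the threshold under each alternative with all genes tested. B2m lost its call after quantile normalization, Pdia3 after median centring, Tap2 in both t-tests, H2-Ke6 in 4 of 15 settings, and Psme1, H2-Q10 and Tapbpl in 8 each. After quantile normalization H2-D1 had a log2 fold change of 0.10, Cd1d1 of 0.052 and Cd74 minus B2m of -0.30, each reversed in sign. With the lowest 50% left out, H2-DMb2 and Ciita were not tested. Probe sets called higher numbered 2 in the t-test of the methods on linear signals, 2 on log2 signals, 2 after quantile normalization and 1 after median centring, against 4, and class I genes called higher 0 in these 4 settings, against 1. The median of class I was -0.083 after quantile normalization, -0.53 after median centring, -0.28 by the mean over probe sets and -0.28 without x_at and s_at probe sets. That of class II was -0.52 after quantile normalization, -0.73 after median centring, -0.45 with no filter, which adds H2-Ea and H2-Oa, and -0.52 without x_at and s_at probe sets. Median centring lowers the median of all genes to -0.10, and quantile normalization to -0.04. The direction of H2-Q10 and Tapbpl held in all 15 settings.

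With each array left out in turn, 26 to 31 probe sets were lower and 2 to 4 higher (2 without control replicate 1, control replicate 2 or TSR replicate 1). The class I median ranged from -0.43 to -0.40 with 3 to 4 genes lower and 0 to 1 higher, and the class II median from -0.67 to -0.57 with 5 genes lower. H2-Ab1 minus H2-K1 ranged from -0.37 to -0.30, Cd74 minus B2m from 0.0032 to 0.12, Psmb8 minus Psmb5 from -0.86 to -0.72, Psmb9 minus Psmb6 from -0.99 to -0.80 and Psmb10 minus Psmb7 from -0.76 to -0.51. The replicate numbers are shared only as numbers, since deviations of same-numbered samples correlated with r of 0.02, 0.19 and 0.17 across probe sets. With the replicate number as a block 34 probe sets were lower and 5 higher, and 2 of the 28 genes, H2-D1 (adjusted p = 0.0057) and Cd1d1 (adjusted p = 0.031), gained a call. The t-test of the methods on linear signals called 25 probe sets lower, 1 of them at least 2-fold, and 28 at an unadjusted p below the threshold. Dim probe sets such as those of Ciita and H2-DMb2 limit what can be seen.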

Other observations

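A further 15 probe sets carry the symbol of an MHC or other member gene together with that of 1 or 2 further genes, and so were not members. Of these, 9 were tested, 7 were lower after TSR, 0 were higher and 2 did not pass. Among tested probe sets that carry a class I symbol, they include the largest falls. The probe set shared by H2-Q6 and H2-Q8, nonclassical class I genes, read 945, 914 and 885 in control and 376, 377 and 377 after TSR, a log2 fold change of -1.28 ± 0.05 (SE; limma, adjusted p = 5.3e-07). The one shared by H2-Q7 and H2-Q9 read 1685, 1472 and 1687 in control and 743, 654 and 707 after TSR (-1.20, adjusted p = 3.4e-06). Both groups of arrays were well apart in each of them. A dim probe set of H2-Q4, H2-Q6 and H2-Q8 gave -1.03 (adjusted p = 0.0031), that of H2-T23, the mouse Qa-1 molecule, together with H2-T-ps gave -0.64 (adjusted p = 6.8e-06), and that of H2-T9, H2-T10 and H2-T22 gave -0.36 (adjusted p = 2.7e-04). Psme2, the beta subunit of the proteasome activator, was read together with Psme2b, and fell from 2364 ± 29.3 to 1984 ± 63.0 (SD, n = 3; log2 fold change -0.25, adjusted p = 0.0013).

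For H2-DMb1 and H2-DMb2, the beta chains of H2-DM, 1 of 2 shared probe sets passed, with 159, 167 and 204 in control and 125, 115 and 139 after TSR (-0.48, adjusted p = 0.015). The other read 199, 204 and 216 in control and 211, 145 and 177 after TSR, so that its groups overlapped (-0.23, adjusted p = 0.18). A probe set shared by H2-K1 and H2-D1 read 2877, 2056 and 2729 in control and 2136, 2057 and 2076 after TSR. Control replicate 2 lay at the level of the TSR arrays, and the log2 fold change of -0.27 did not pass (adjusted p = 0.066).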
